A study of Mus musculus with 24 samples.

Results

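The Zscan4 gene cluster is a group of near-identical genes on mouse chromosome 7. Its members here are the 6 genes Zscan4a to Zscan4f, found in each count table by gene ID, 6 of 55487 genes. The cells were KH2, a mouse embryonic stem cell line, and their RNA was sequenced. All of them, controls included, carry a DUX transgene that responds to doxycycline (DOX). The 24 libraries fall into 12 groups of 2, and each of 6 lines was sequenced without DOX and after 16 h of DOX. WT and DUXBL-KO (a knockout of Duxbl) form a plain set of 8 libraries. The pLV2 set of 16 holds both WT pLV2 lines (line 1 and line 2) with TRIM33-KO pLV2 and TRIM24-KO pLV2, knockouts of Trim33 and Trim24. Neither the meaning of pLV2 nor the following is in the labels: which WT line is the parent of which knockout, and how many clones a line holds. The sets were normalised and tested apart, so their levels are set side by side only, except in the search for genes of like pattern, which pools both.

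ZSCAN4 proteins carry a SCAN domain, which joins such proteins to each other, and zinc fingers that bind DNA. The genes are transcribed in the mouse embryo at the 2-cell stage, when its own genome is switched on, and in a small, changing fraction of embryonic stem cells in culture. They have been tied to telomere lengthening and genome stability. DUX is a double homeobox transcription factor that binds and activates Zscan4 and other genes of that stage, and DUXBL is a related homeobox protein. TRIM24 and TRIM33 are chromatin-bound proteins of the tripartite motif family.

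The members lie between positions 10794242 and 11402318 of chromosome 7 (GRCm38), a span of 608.1 kb. Zscan4b (10900740 to 10905050), Zscan4c (11005745 to 11010547), Zscan4d (11161374 to 11166159) and Zscan4f (11397915 to 11402318) are protein-coding in both GENCODE and RefSeq. Zscan4a (10794242 to 10799057) is a pseudogene in both. Zscan4e (11306378 to 11310682) is protein-coding in GENCODE and a pseudogene in RefSeq. Zscan4c and Zscan4f are on the plus strand and the other 4 on the minus strand. Zscan4c has been described as the main copy in embryonic stem cells and Zscan4d as that of the 2-cell embryo. Beside them stand Zscan4-ps1, Zscan4-ps2 and Zscan4-ps3, which RefSeq lists as pseudogenes and GENCODE as protein-coding.

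The upstream sequences are shown because the copies rose together with DOX, and their promoters can be compared letter by letter. RefSeq's promoter table (GRCm38.p6) matched 4 of the 6 members. The 250 bases before each RefSeq start follow, 5′ to 3′ on the gene's strand. Capitals mark TATAAA, the core promoter element that helps place the start of transcription. They also mark TGATT on either strand, an arm of the double homeobox motif.
Zscan4b, chr7:10905051-10905300, minus strand: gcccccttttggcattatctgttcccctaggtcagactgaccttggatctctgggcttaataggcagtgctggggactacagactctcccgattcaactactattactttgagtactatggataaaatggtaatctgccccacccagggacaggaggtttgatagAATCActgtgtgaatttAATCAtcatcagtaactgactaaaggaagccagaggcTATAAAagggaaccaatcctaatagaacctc
Zscan4c, chr7:11005495-11005744, plus strand: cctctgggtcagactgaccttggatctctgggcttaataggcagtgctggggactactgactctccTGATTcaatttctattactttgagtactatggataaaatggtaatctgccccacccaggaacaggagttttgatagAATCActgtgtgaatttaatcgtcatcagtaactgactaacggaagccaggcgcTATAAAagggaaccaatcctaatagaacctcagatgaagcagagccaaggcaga
Zscan4d, chr7:11166149-11166398, minus strand: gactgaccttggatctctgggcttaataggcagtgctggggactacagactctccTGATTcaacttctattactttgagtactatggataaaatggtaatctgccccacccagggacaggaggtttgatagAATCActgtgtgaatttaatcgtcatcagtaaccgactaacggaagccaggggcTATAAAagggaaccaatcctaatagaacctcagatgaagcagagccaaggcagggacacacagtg
Zscan4f, chr7:11397665-11397914, plus strand: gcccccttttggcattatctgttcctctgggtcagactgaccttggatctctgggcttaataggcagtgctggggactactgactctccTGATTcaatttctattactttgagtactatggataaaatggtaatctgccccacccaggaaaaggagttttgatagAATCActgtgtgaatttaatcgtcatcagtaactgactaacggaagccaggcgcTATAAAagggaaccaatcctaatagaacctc
Over their aligned bases the 4 promoters were between 94.7% and 99.6% identical, with Zscan4c and Zscan4f the closest pair. TATAAA was read in 4 of 4, beginning 31 bases before the annotated start in Zscan4b and Zscan4f, 54 before it in Zscan4c and 65 in Zscan4d. Of all 32851 promoters in the table, 12.4% held TATAAA in that window on either strand. The whole motif, TGATT followed by any 1 base and its own reverse complement, was in 0 of 4 and in 0.0304% of all promoters. TGATT on either strand, searched after the sequences had been seen, was in 4 of 4 and in 33.7% of all. On the gene's own strand it was read in Zscan4c, Zscan4d and Zscan4f. TGCACAC, a motif reported for ZSCAN4 binding, was in 0 of 4 and in 3.67% of all. A match or its absence describes these letters only.

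The transcripts were also alike, which bears on how reads were shared among the members. Over 15 pairs of members the longest transcripts were between 94.1% and 97.8% identical. A 60-base coding stretch of Zscan4c (coding bases 706 to 765, chr7:11009181-11009240, plus strand, GRCm38) is shown with the closest stretch of each other member. It held the most differences among the 488 stretches compared in which no member differed at more than 5 bases. Capitals mark bases that differ from Zscan4c.
Zscan4a: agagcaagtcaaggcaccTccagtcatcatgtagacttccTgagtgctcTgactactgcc
Zscan4b: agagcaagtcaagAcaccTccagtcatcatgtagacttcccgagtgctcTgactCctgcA
Zscan4c: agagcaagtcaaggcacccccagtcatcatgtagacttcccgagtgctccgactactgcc
Zscan4d: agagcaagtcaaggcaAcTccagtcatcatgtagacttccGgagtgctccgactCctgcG
Zscan4e: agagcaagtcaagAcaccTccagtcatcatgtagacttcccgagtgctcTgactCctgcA
Zscan4f: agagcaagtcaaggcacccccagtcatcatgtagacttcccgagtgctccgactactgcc
In this stretch Zscan4f could not be told from Zscan4c, nor Zscan4e from Zscan4b. A read is 75 bases long, and in 5 of the 6 members, Zscan4d being the exception, most 75-base windows recur in another gene of the family. Windows found in no other gene's annotated transcripts made up 60.5% of Zscan4d, 49.1% of Zscan4a, 21.4% of Zscan4c, 16.8% of Zscan4b, 16.6% of Zscan4f and 15.5% of Zscan4e. Zscan4b shared 79.9% of its windows with Zscan4e. How reads that match several genes were counted is not given in the sources used here, so a single member's count is uncertain. All 9719 windows of the 9 Zscan4 genes recurred, if anywhere, within the family or in the nearby pseudogene Gm45551. The summed count of the 6 members is given beside each of them. It takes up sharing among the members, but not that with the pseudogenes: Zscan4f shared 71.7% and Zscan4c 60.8% of windows with Zscan4-ps2, and Zscan4d 25.6% with Zscan4-ps3. The sum is therefore uncertain in the same way.

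Gene counts ranged from 11784696 to 19136869 per library. A count of 0 in a library allows a level of up to 0.144 to 0.381 CPM (3 counts, where CPM are counts scaled to a common library size). Dux, read as Duxf3, had 0 to 2 counts in each library titled without DOX and 20 to 110 in each titled with DOX, which matches the titles. The treatment tags of 8 pLV2 libraries disagree with their titles, and the titles were followed. Transgene and endogenous Dux reads cannot be told apart here. Trim33 was at 16.9 to 21.4 CPM in TRIM33-KO and at 85.2 to 140 CPM in the WT pLV2 lines. Trim24 was at 120 to 137 CPM in TRIM24-KO, above WT pLV2 line 1 (94.5 to 100) and below line 2 (165 to 199). Duxbl1 was at 4.97 to 11.1 CPM with DOX in DUXBL-KO and at 3.23 to 8.34 in WT. A gene count need not fall in a knockout that alters a few bases or exons, and the altered parts are not in the labels. DUXBL-KO and TRIM24-KO therefore stand here for the libraries labelled so, which these counts do not check. The 8 embryonic stem cell markers summed to 3317 to 5214 CPM, none at 0. DOX lowered 4 of the 8 in line 2 (beside 14% of all genes), 4 in TRIM24-KO (4.94%), 4 in TRIM33-KO (20.1%), 1 in line 1 (6.25%) and 0 in either plain line. Nanog was called higher in line 1 (0.33), line 2 (0.24) and TRIM33-KO (0.28), and 0 were called higher in the others. The 10 fibroblast markers, for feeder cells, summed to 11.5 to 34.5 CPM, with Postn, Lum and Dcn at 0 in most groups. Their sum was higher with DOX, without overlap, in each line but line 2, as in WT (13.8 to 15.9 CPM without and 18.6 to 21.5 with DOX) and TRIM24-KO (18.5 to 20.5 and 25.7 to 30.1). Of 5 tested, 1 was called higher with DOX in line 1 (beside 10% of all genes) and in line 2 (12.7%), 2 in TRIM24-KO (11.5%) and in TRIM33-KO (16.5%), and 0 in the plain set. Pdgfrb was called lower in line 2 (-0.93) and TRIM33-KO (-0.93). The part of either marker list in the Zscan4 rise with DOX was not tested.

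DOX raised all 6 members in all 6 lines, from near nothing to among the most abundant transcripts. In WT the summed counts were 4 and 4 without DOX and 49854 and 23007 with it. DUXBL-KO went from 34 and 48 counts to 52905 and 37201. No library without DOX came near any library with DOX, and the plot of summed levels shows the gap. As CPM, WT held 0.310 and 0.243 without DOX and 2991 and 1258 with it. DUXBL-KO held 1.83 and 2.57 without DOX and 3476 and 2032 with it. In bulk RNA a larger fraction of cells with Zscan4 and more Zscan4 RNA per cell cannot be told apart.

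**Figure D1:**
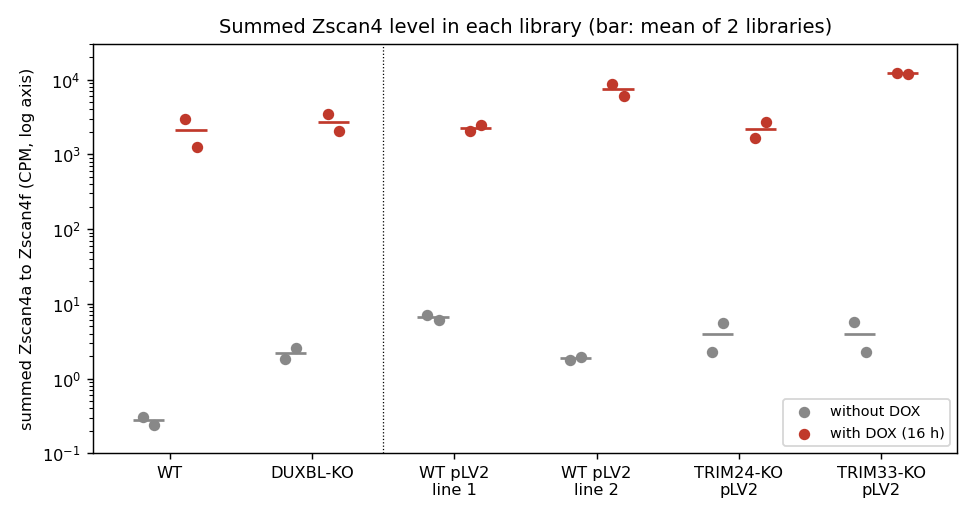
Summed CPM of the 6 members in each library on a log axis, without DOX in grey and with DOX in red, with a bar at the mean of 2 libraries. The dotted line parts the plain set from the pLV2 set. Every library with DOX is at 1258 CPM or above, and every library without it at 7.07 CPM or below.

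The pLV2 lines also rose, from different starting points. WT pLV2 line 1 held 103 and 96 summed counts without DOX and 26949 and 33047 with it. WT pLV2 line 2 held 37 and 32 without and 115479 and 80751 with DOX. Line 2 thus began lower and ended higher than line 1. TRIM24-KO went from 38 and 97 to 20192 and 21450 counts, and TRIM33-KO from 114 and 48 to 139538 and 109556. In TRIM33-KO with DOX replicate 1 the 6 members took 1.17% of all gene counts (Wilson 95% interval 1.16 to 1.17, counting error only). Ranked by CPM per kb of exon among 55227 genes, members stood between position 37 (Zscan4e, TRIM33-KO replicate 1) and 564 (Zscan4b, TRIM24-KO replicate 1) with DOX.

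The edgeR quasi-likelihood test, with Benjamini-Hochberg adjustment over all genes tested, called 6 of 6 members higher with DOX in each line. In the plain set all 6 members passed the filter on low counts only through the libraries with DOX, so there the call was set by the filter and adds nothing to the counts. In the pLV2 set 6 of 6 also passed by the libraries without DOX. Of all genes, 2.82% were called higher in WT and 4.5% in DUXBL-KO. For WT pLV2 line 1 that share was 10%, for line 2 12.7%, for TRIM24-KO 11.5% and for TRIM33-KO 16.5%. The summed log2 fold change was 12.89 ± 0.75 (SE, adjusted p = 0.00223) in WT and 10.29 ± 0.62 (adjusted p = 0.00123) in DUXBL-KO. Line 1 gave 8.46 ± 0.39 (adjusted p = 3.86e-11), and line 2 gave 12.03 ± 0.45 (adjusted p = 1.57e-12). TRIM24-KO gave 9.10 ± 0.41 (adjusted p = 1.69e-11), and TRIM33-KO 11.64 ± 0.44 (adjusted p = 8.52e-13). The WT call rests on few libraries: without WT no-DOX replicate 2 the change was 12.73 (adjusted p = 0.0622), with the 4 WT libraries alone 12.89 (adjusted p = 0.0535), and 0 members were called in either. Nothing says whether replicates came from separate cultures, so p-values measure the spread between these libraries, which may be technical.

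Single members in WT rose from at most 3 counts in the 2 libraries together. Zscan4b and Zscan4e had 0 counts without DOX, and their levels were at least 2507-fold and 3557-fold higher with DOX (against 3 counts over the group). Zscan4a was 7011-fold higher (exact counting interval 1940 to 57890, 2 counts without DOX). The ratio was 3062 for Zscan4c (1048 to 14850), 11350 for Zscan4d (2038 to 448500) and 4216 for Zscan4f (1167 to 34820). These intervals are wide because the denominators are 1 to 3 reads, and they overlap for all 4. In WT pLV2 line 1, where the members had 22 to 44 counts without DOX, fitted log2 fold changes ran from 7.86 (Zscan4d) to 9.33 (Zscan4a). In line 2 they ran from 11.48 (Zscan4e) to 12.42 (Zscan4c), in TRIM24-KO from 8.43 (Zscan4b) to 9.42 (Zscan4c) and in TRIM33-KO from 11.16 (Zscan4d) to 11.99 (Zscan4b). DUXBL-KO ran from 9.59 (Zscan4e) to 11.70 (Zscan4f).

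Levels of members are given per kb of exon, and they depend on how shared reads were counted. With DOX, Zscan4a and Zscan4e had the highest mean CPM per kb in each of the 6 lines, and Zscan4b, Zscan4c or Zscan4d the lowest. In WT with DOX, Zscan4a was at 303 and 125 CPM per kb and Zscan4e at 289 and 125. The same libraries held 197 and 83.0 CPM per kb of Zscan4c and 246 and 101 of Zscan4d. In TRIM33-KO with DOX, Zscan4e was at 1256 and 1225 CPM per kb and Zscan4c at 767 and 707. There the 2 ranges are apart. In WT the spread between the 2 libraries exceeded the gap between members, but Zscan4e was above Zscan4c in each library. Among the 6 members, Zscan4a and Zscan4e, which RefSeq lists as pseudogenes, had the highest mean levels per kb. GENCODE lists Zscan4e as protein-coding. Zscan4e shared 80.3% of its windows with Zscan4b, so this order of members is uncertain.

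**Figure D2:**
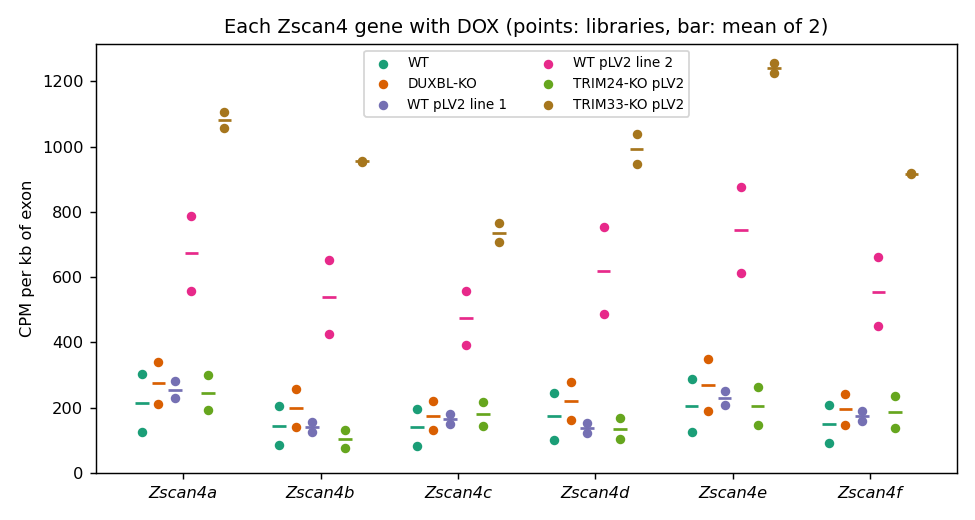
CPM per kb of exon of each member in the libraries with DOX, by line, with points for libraries and bars for the mean of 2. In the pLV2 set both TRIM33-KO libraries lie above all others for every member, and both libraries of WT pLV2 line 2 come next.

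The make-up of the Zscan4 counts with DOX varied between libraries. Zscan4a gave 20.3 to 26.4% of the summed counts, Zscan4b 8.28 to 14.5%, Zscan4c 13.5 to 19.6%, Zscan4d 13.4 to 19.4%, Zscan4e 15.6 to 18.5% and Zscan4f 13.6 to 16.9%. Zscan4c and Zscan4d, which have almost the same length, changed places. Zscan4c gave 16.8 and 16.5% in WT pLV2 line 1 and Zscan4d 13.4 and 13.9%. In TRIM24-KO Zscan4c gave 19.6 and 18.2% and Zscan4d 14.0 and 14.0%. In the other 8 libraries with DOX Zscan4d led, as in WT pLV2 line 2 with 19.4 and 18.4% against 14.4 and 14.8% for Zscan4c. WT pLV2 line 1 and TRIM24-KO also had the highest Zscan4a shares (25.0 to 26.4%) and the lowest Zscan4b shares (8.28 to 11.2%). This grouping of lines was seen in the values, and a difference in make-up between lines was not tested.

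**Figure D3:**
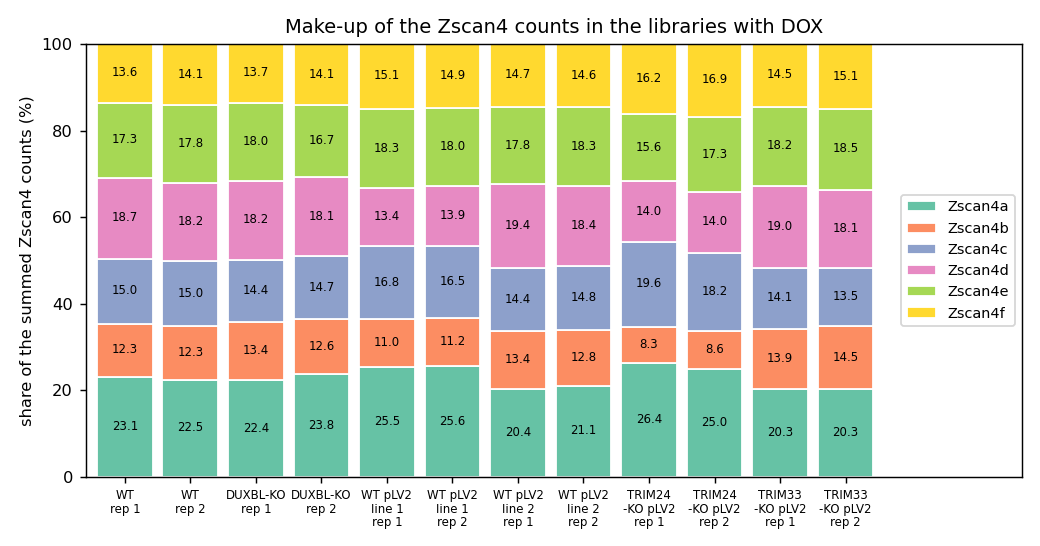
Stacked shares of the summed Zscan4 counts for each member in the 12 libraries with DOX, in percent of the summed count. Zscan4d takes 13.4 to 14.0% in WT pLV2 line 1 and TRIM24-KO and 18.1 to 19.4% in the other libraries.

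Without DOX the cluster was low everywhere, and 1 of the 4 comparisons between lines passed the test for the sum. WT pLV2 line 1 held a summed 7.07 and 6.18 CPM, line 2 held 1.79 and 1.96, TRIM24-KO 2.28 and 5.63, and TRIM33-KO 5.67 and 2.31. Both knockouts overlap each other, line 2 lies below and line 1 above them. The sum was lower in line 2 than in line 1 (log2 fold change -1.84 ± 0.43, adjusted p = 0.00254), with 2 of 6 members called lower, beside 19.3% of all genes. Those were Zscan4c (-2.79 ± 0.72, adjusted p = 0.00526) and Zscan4d (-2.13 ± 0.73, adjusted p = 0.0292). The fibroblast markers summed to 27.6 to 34.1 CPM in line 2 and 15.1 to 16.1 in line 1 without DOX. For embryonic stem cell markers these sums were 4036 to 4208 and 4343 to 4459 CPM. They were 80.4 to 81.9 and 61.1 to 64.6 for trophoblast markers, and 3.5 to 4.2 and 5.7 to 6.1 for primitive endoderm markers. The part of these markers in the difference was not tested. Leaving out line 1 replicate 1, line 2 replicate 1 or line 2 replicate 2 left 1 member called.

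For TRIM24-KO the sum without DOX differed from the mean of both WT lines by 0.23 ± 0.36 (adjusted p = 0.652), and for TRIM33-KO by 0.17 ± 0.35 (adjusted p = 0.796). edgeR called 0 of 6 members in either, none with an unadjusted p under 0.05, and DESeq2 called 0, beside 43.4% and 23.9% of all genes changed. Against line 1 alone both differences turned negative (-0.69 and -0.75), and against line 2 alone they were 1.15 (adjusted p = 0.0435) and 1.09 (adjusted p = 0.327). Leaving out TRIM24-KO no-DOX replicate 2 (-0.62) or TRIM33-KO no-DOX replicate 1 (-0.58) turned the sign too. DUXBL-KO held 82 summed counts without DOX over 2 libraries and WT 8, and both DUXBL-KO libraries exceeded both WT libraries. That difference was 2.98 ± 0.99 on the log2 scale (adjusted p = 0.455), with 0 of 6 members called by edgeR, none at an unadjusted p under 0.05, beside 0.0388% of all genes. DESeq2 gave 3.02 (adjusted p = 0.0192) and called 1 member, and edgeR with no filter on low counts gave 2.99 (adjusted p = 1.8e-10) and called 3. The size hardly moved in either, and the cause of the smaller p was not tested.

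With DOX the 2 WT pLV2 lines differed. The sum was at 8820 and 6022 CPM in line 2 and at 2051 and 2500 CPM in line 1. The ranges do not overlap, and the log2 fold change of line 2 over line 1 was 1.73 ± 0.28 (adjusted p = 1.28e-04). All 6 members were higher in line 2, beside 19.5% of all genes, from 1.40 ± 0.21 for Zscan4a to 2.18 ± 0.22 for Zscan4d. The response to DOX differed as well: fitted folds of the sum were 352 in line 1 and 4173 in line 2, and their difference was 3.57 ± 0.51 on the log2 scale (adjusted p = 0.0043, beside 0.26% of all genes changed). Without line 1 no-DOX replicate 1 it was 3.42 (adjusted p = 0.051). The 10 fibroblast markers summed to 32.4 to 34.5 CPM in line 2 with DOX and to 20.3 to 22.6 CPM in line 1, with 3 of 5 tested higher. Of the 8 embryonic stem cell markers 5 were lower (beside 20.6% of all genes) and 2 higher in line 2, with Dppa5a at -1.40 ± 0.14, and they summed to 3536 to 3587 CPM there and 4209 to 4213 in line 1. Of 5 primitive endoderm markers 2 were lower, with sums of 1.42 to 2.90 CPM in line 2 and 4.26 to 4.62 in line 1, and of 4 trophoblast markers tested Eomes was lower (-0.93). The part of these markers in the difference was not tested.

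TRIM33-KO with DOX held the highest level of the pLV2 set, with a sum of 12400 and 11880 CPM, above all 4 libraries of the WT pLV2 lines. Against the mean of both WT lines the sum was higher by 1.57 ± 0.23 on the log2 scale (adjusted p = 8.96e-05). All 6 members were called higher, beside 15.1% of all genes, from 1.38 ± 0.17 for Zscan4a to 1.80 ± 0.18 for Zscan4b. The size depended on the reference line: 2.43 (adjusted p = 4.16e-06) against line 1 alone and 0.70 (adjusted p = 0.196) against line 2 alone, with 1 member called. TRIM33-KO replicate 2 held 12.9% of its gene counts in CT010467.1, which the other libraries but 1 held at 1.3% or less. With that gene left out the sum differed by 1.57 (adjusted p = 7.38e-05). The difference between its DOX response and that of the WT lines was 1.40 ± 0.42 (adjusted p = 0.221, beside 0.603% of all genes called). Its sign turned with the reference, from 3.18 (adjusted p = 0.00127) against line 1 alone to -0.38 (adjusted p = 1.0) against line 2 alone. With no filter on low counts it was 1.33 (adjusted p = 3.9e-15). The libraries were the same and the size hardly moved, and the cause of the smaller p was not tested. Of the 8 embryonic stem cell markers 4 were lower (beside 11.7% of all genes) and 2 higher in TRIM33-KO with DOX than in the WT lines, with Dppa5a at -0.50 ± 0.13. Of 5 fibroblast markers tested 2 were higher, and the 10 summed to 30.6 to 32.6 CPM. Of 4 trophoblast markers tested 1 was higher (Elf5, 3.5, at 0 in line 1 with DOX), beside 15.1% of all genes. Of 5 primitive endoderm markers 1 was lower (Sox7, -2.1), beside 11.7%. The part of these markers in the difference was not tested.

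In TRIM24-KO with DOX the sum was at 1672 and 2726 CPM, a range that covers WT pLV2 line 1 and lies below line 2. Against the mean of both WT lines it was lower by a log2 fold change of -0.91 ± 0.25 (adjusted p = 0.00702). All 6 members were called lower, beside 18.1% of all genes, from -1.41 ± 0.20 for Zscan4b to -0.64 ± 0.16 for Zscan4c. Against line 1 alone the sum differed by -0.04 (adjusted p = 0.929), with 0 members called, and against line 2 alone by -1.77 (adjusted p = 6.58e-05). Without TRIM24-KO DOX replicate 1 it was -0.61 (adjusted p = 0.116), with 3 members called, and DESeq2 gave -0.92 (adjusted p = 0.0535), also with 3. Replicate 2 held 30.4% of its gene counts in CT010467.1, and with that gene left out the sum differed by -0.92 (adjusted p = 0.00585). The 5 primitive endoderm markers summed to 18.2 to 22.7 CPM in TRIM24-KO and to 1.42 to 6.11 CPM in the other pLV2 groups, none of them at 0. Among libraries with DOX, 4 of the 5 were higher in TRIM24-KO than in the WT lines, beside 22.7% of all genes, and DOX itself raised 0 of them in TRIM24-KO. Of 4 trophoblast markers tested with DOX, Elf5, at 0 in line 1, and Hand1 (2.65 ± 0.39) were higher and Tfap2c was lower (-0.61 ± 0.12). The 5 listed had sums of 37.7 to 42.3 CPM in TRIM24-KO and 49.0 to 58.3 in the WT lines. Of the embryonic stem cell markers 4 of 8 were lower, among them Klf4 (-1.03 ± 0.07) and Nanog (-0.76 ± 0.07), and 2 higher. The part of these markers in the difference was not tested. The DOX response of TRIM24-KO minus that of the WT lines was -1.14 ± 0.43 (adjusted p = 0.549, beside 0.255% of all genes called). It was 0.64 (adjusted p = 0.898) against line 1 alone and -2.93 (adjusted p = 0.0222) against line 2 alone, so its sign turned with the reference. With no filter on low counts it was -1.14 (adjusted p = 3.4e-10), the same size, and the cause of the smaller p was not tested.

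In the plain set, DUXBL-KO with DOX held 3476 and 2032 CPM and WT 2991 and 1258 CPM, so the groups overlap. Within each replicate number DUXBL-KO was the higher, but the labels do not say that a number pairs samples. The difference was 0.37 ± 0.40 on the log2 scale (adjusted p = 0.787). edgeR called 0 of 6 members, 0 at an unadjusted p under 0.05, and DESeq2 called 0, beside 0.072% of all genes changed. Members ranged from 0.32 ± 0.39 for Zscan4c to 0.46 ± 0.47 for Zscan4b. Leaving out WT DOX replicate 2 (-0.12) or DUXBL-KO DOX replicate 1 (-0.08) turned the sign. Deviations of same-numbered plain libraries correlated at 0.31 to 0.68, and leaving out 1 library takes no account of that. The DOX response of DUXBL-KO minus that of WT was -2.60 ± 1.10 (adjusted p = 1.0, with 0 of all genes called). With no filter on low counts it was -2.63 (adjusted p = 1.31e-06), a size hardly moved, and the cause of the smaller p was not tested.

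**Figure D4:**
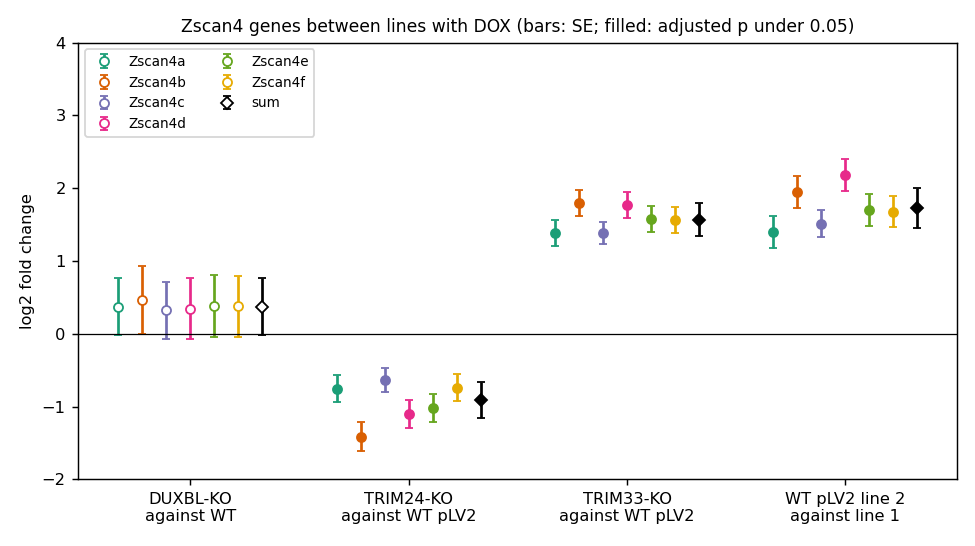
Log2 fold change of each member and of the sum between lines with DOX, with SE bars and filled symbols where the adjusted p is under 0.05. The comparisons with WT pLV2 use the mean of both WT lines. All members are above 0 in TRIM33-KO and in WT pLV2 line 2, below 0 in TRIM24-KO, and within 0.32 to 0.46 in DUXBL-KO.

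Dux did not follow the same order over the lines. With DOX, Dux was at 7.23 and 8.32 CPM in WT pLV2 line 1 and at 4.43 and 3.95 CPM in line 2. Its log2 fold change of line 2 over line 1 was -0.89 ± 0.24 (adjusted p = 0.00759), while that of the Zscan4 sum was 1.73. In TRIM24-KO Dux was at 3.15 and 3.05 CPM, lower than the mean of the WT lines by a log2 fold change of -0.88 ± 0.24 (adjusted p = 0.00797). That call depended on the WT line used. With only line 1 as reference, Dux in TRIM24-KO differed by -1.32 ± 0.26 (adjusted p = 0.00113). With only line 2 the value was -0.43 ± 0.27 (adjusted p = 0.21), which was not a call. TRIM33-KO held 6.93 and 5.85 CPM of Dux, a difference of 0.17 ± 0.21 from the WT lines (adjusted p = 0.593). Here the choice of WT line set the sign, and neither choice gave a call. Line 1 gave -0.28 ± 0.23 (adjusted p = 0.358), and line 2 gave 0.61 ± 0.24 (adjusted p = 0.216). DUXBL-KO held 4.93 and 2.84 CPM and WT 1.38 and 1.09 CPM, with no overlap and a difference of 1.64 ± 0.41 (adjusted p = 0.346). These Dux values rest on 20 to 110 reads per library.

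**Figure D5:**
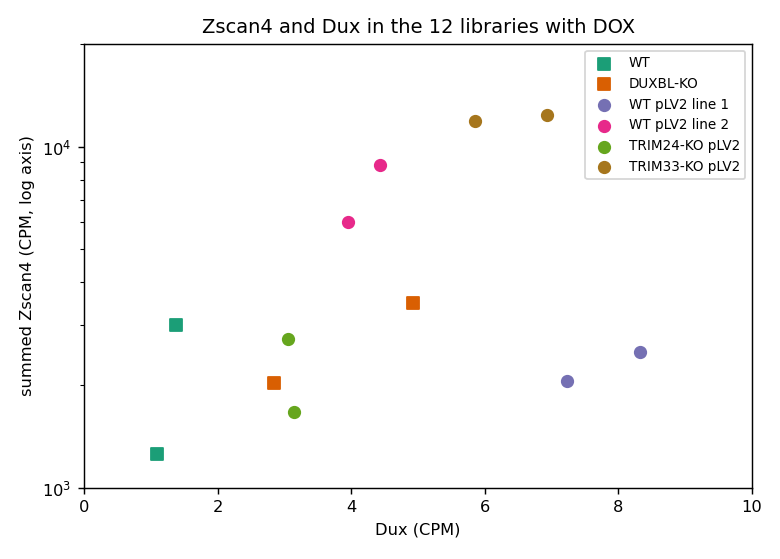
Summed Zscan4 CPM on a log axis against Dux CPM in the 12 libraries with DOX, squares for the plain set and circles for the pLV2 set. WT pLV2 line 1 has the highest Dux, at 7.23 and 8.32 CPM, with Zscan4 at 2051 and 2500 CPM.

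The genes whose pattern over the 12 libraries with DOX was most like the Zscan4 sum were sought among 11837 genes with a mean of at least 50 counts. Likeness was the root mean square difference of centred log2(CPM + 1), and it pools both sets, whose CPM were scaled apart. The closest were Zscan4-ps3 (0.0829) and Zscan4-ps2 (0.127), which share reads with the members. Next came Gm8332 (0.164) and Gm5662 (0.168) on chromosome 12 and Gm13867 (0.167) on chromosome 4. The median gene was at 1.17 and Dux at 0.952. A gene with the same level in all 12 libraries would be at 1.07, the spread of the Zscan4 sum itself. Gm5662 was at 1471 and 1209 CPM in TRIM33-KO with DOX, 1041 and 822 in WT pLV2 line 2 and 309 and 372 in line 1. Zscan4-ps1, Zscan4-ps2 and Zscan4-ps3 were called higher with DOX in every line, but the filter set that call for all 3 in the plain set and for Zscan4-ps1 in the pLV2 set, which passed only through the libraries with DOX. The 3 were called in the same direction as the members between the pLV2 lines with DOX.

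Along the chromosome, the neighbours counted with DOX were few. Within 500 kb of the cluster 81 other annotated genes begin, of which 77 had at most 100 counts over all libraries together and 6 could be tested in at least one set. Of those 6, all but Zik1 passed the filter only through the libraries with DOX, so only their counts are given. Gm45551, an annotated pseudogene, had 9 counts over the 12 libraries without DOX and 11423 over the 12 with it. The pseudogenes Gm18204 (beginning at 11169504) and Gm6909 (11182400) lie between Zscan4d and Zscan4e, and had 0 and 1 counts over the 12 libraries without DOX and 1779 and 1458 over the 12 with it. Zik1, a zinc finger gene beginning at 10487229 and the only neighbour well counted without DOX, had 3669 and 2765 counts. It was called lower in TRIM33-KO (log2 fold change -0.37 ± 0.14, adjusted p = 0.0469) and in no other line. Vmn1r71, a vomeronasal receptor gene, and the miRNA gene Gm26248 had 1 and 0 counts without DOX and 66 and 72 with it.

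Other genes of the 2-cell stage were listed with earlier results of these data known. Of the 14, 13 passed the plain filter only through the libraries with DOX, as did 12 for pLV2, so calls of a rise with DOX add nothing for them. Sp110 passed by the pLV2 libraries without DOX and rose in each pLV2 line, from 7.88 ± 0.32 (line 1) to 12.03 ± 0.41 (line 2). Duxbl1 also rose in each pLV2 line, from 2.00 ± 0.30 (TRIM24-KO) to 5.09 ± 0.35 (TRIM33-KO), and was not called in the plain set (2.43 ± 0.82 in WT, adjusted p = 0.288, and 3.74 ± 0.85 in DUXBL-KO, adjusted p = 0.0572). Between lines with DOX, 11 of 14 were higher in TRIM33-KO than in the mean of the WT lines, beside 15.1% of all genes, such as Zfp352 (1.40 ± 0.13) and Sp110 (1.39 ± 0.16). Against line 1 alone 11 were higher, beside 21.4% of all genes, with Zfp352 at 2.21 ± 0.16. Against line 2 alone 7 were, beside 2.79%, with Zfp352 at 0.60 ± 0.15. Line 2 had 11 higher and 1 lower (Dux) than line 1, beside 19.5% of all genes higher and 20.6% lower. In DUXBL-KO against WT 0 of 14 were called, beside 0.072% of all genes changed, and 7 had an unadjusted p under 0.05. The median of the 14 was 0.89. For TRIM24-KO against the mean of the WT lines the list was split, with 4 higher and 3 lower and a median of 0.04. Those counts are near the share of all genes, 22.7% higher and 18.1% lower. In that comparison 6 of 6 Zscan4 members were lower, a call lost against line 1 alone. Of the list, Tdpoz4 was higher than that mean (1.05 ± 0.16) and Tmem92 lower (-0.50 ± 0.12). Against line 1 alone 8 were higher and 2 lower, beside 17.9% and 14.3% of all genes, and against line 2 alone 2 were higher and 5 lower, beside 24.7% and 22.1%.

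Among 16 regulators of Zscan4 and of the 2-cell state, between 0 (WT) and 8 (TRIM33-KO) were called in either direction with DOX. Dppa2, a chromatin protein that activates Dux and Zscan4, was called higher in 5 of 6 lines, from 0.87 ± 0.15 in DUXBL-KO to 1.69 ± 0.08 in TRIM24-KO. Trim28, a corepressor, was called higher in all 4 pLV2 lines (0.24 to 0.50). Line 1 had 3 higher and 1 lower, beside 10% and 6.25% of all genes, and line 2 had 3 and 4, beside 12.7% and 14%. TRIM24-KO had 4 and 1, beside 11.5% and 4.94%, and TRIM33-KO 4 and 4, beside 16.5% and 20.1%. Ehmt2, a histone methyltransferase, was called lower in line 1 (-0.29), line 2 (-0.40) and TRIM33-KO (-0.38). Tbx3, a transcription factor, was called lower in line 2 (-0.27), TRIM24-KO (-0.54) and TRIM33-KO (-0.44), and Patz1 in line 2 (-0.32) and TRIM33-KO (-0.44). Usp7 in line 2 (-0.18) and Kdm1a in TRIM33-KO (-0.17) were the other 2 lower calls. In WT edgeR called 0 of the 16, with 1 at an unadjusted p under 0.05, beside 2.93% of all genes changed. Of 17 telomere and recombination genes tested of 18 listed, edgeR called 0 in WT, DUXBL-KO and WT pLV2 line 1, with 1, 3 and 5 at an unadjusted p under 0.05. Line 2 had 2 called higher and 4 lower, beside 12.7% and 14% of all genes. TRIM24-KO had 3 higher with 2 lower, beside 11.5% and 4.94%, and TRIM33-KO had 3 higher with 4 lower, beside 16.5% and 20.1%. The counts higher in line 2 and TRIM33-KO are near the share of all genes. DOX changed 4.91% of all genes in DUXBL-KO and 16.3% in line 1. Terc, the telomerase RNA, was called higher in line 2 (0.97 ± 0.15), TRIM24-KO (0.62 ± 0.15) and TRIM33-KO (1.45 ± 0.15). Tert, the telomerase enzyme, was called lower in the same 3 (-0.47, -0.36 and -0.43), where 14%, 4.94% and 20.1% of all genes were lower. Of 23 other SCAN zinc finger genes, 0 (WT, 1 at an unadjusted p under 0.05) to 6 (TRIM33-KO) were called in either direction with DOX, beside 36.6% of all genes in TRIM33-KO. Zkscan17 was called lower in DUXBL-KO (-0.49), WT pLV2 line 1 (-0.41), line 2 (-0.47) and TRIM33-KO (-0.53), beside 0.404% of all genes lower in DUXBL-KO and 6.25% in line 1.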

How the data were processed

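RNA-seq libraries were sequenced as paired 75-base reads from total RNA with a strand-specific kit after removal of ribosomal RNA, per the labels' protocols. The authors deposited unnormalised read counts for genes and repeat subfamilies. The submitters' processing notes name bcl2fastq 2.20.0, cutadapt 1.18, STAR 2.7.6a and mm10. The counting tool, and what it did with multi-mapping reads, are not given in the sources used here. Groups follow the titles. Of 55487 gene IDs, 54435 matched GENCODE M21 with their version, 792 without it and 260 not at all.

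Genes passing filterByExpr (18060 plain, 18079 pLV2) were fitted with 1 mean per group in edgeR 4.0.16 (TMM, glmQLFit, glmQLFTest, 2-sided). The 1146 repeat subfamilies stayed out. The p-values were adjusted by Benjamini-Hochberg over all genes, contrast by contrast (18 in all), and 0.05 was the threshold. The sum of the 6 members replaced them in a second fit. CPM values use the effective library sizes of each set. Named were the members, Zscan4 pseudogenes, genes within 500 kb, the 5 genes of most like pattern, and the lists. Scripts were tested on simulated data. DESeq2 1.42.0, Biopython 1.88 and SciPy 1.17.1 were also used. The members, lists and tests were chosen with earlier results of these data known. The alternative without CT010467.1, the 2-cell list against single lines and the search for TGATT were chosen after seeing these data.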

Additional observations from a re-analysis of the deposited data

Results flagged for a closer look

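The response of the summed Zscan4 counts to DOX differed between the 2 WT pLV2 lines, by an interaction term in edgeR of 3.57 on the log2 scale (SE 0.51, adjusted p = 0.0043). Without line 1 no-DOX replicate 1 it was 3.42 (adjusted p = 0.051), and the call was lost. Line 1 rose from 103 and 96 counts to 26949 and 33047, and line 2 from 37 and 32 to 115479 and 80751. All 4 libraries of line 2 lie outside the range of line 1, below it without DOX and above it with DOX.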

How the results depend on the processing

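Depth limits the groups without DOX, where the 6 members had 4 to 114 counts per library in all. Values below are log2 fold changes of the summed members, with counts of members called in edgeR where named. Of 434 recomputed sums and counts, 396 kept their direction and call. The cause of the others was not tested, beyond the fewer libraries or other reference that the alternative itself brings. With no filter, genes of low count also enter the fit from which the spread is estimated. DOX in WT was 12.89 with only the compared groups, with 0 members called, and 12.14 to 13.38 with 0 to 6 members called when 1 library was left out. DUXBL-KO against WT with DOX ran from -0.12 to 1.11 with 1 library left out, and 1 member was called with no filter on low counts. Without DOX that comparison gave 2.99 with no filter (3 members) and 3.02 in DESeq2 (1 member), and its interaction -2.63 with no filter, where it became a call (adjusted p = 1.31e-06). TRIM24-KO against WT pLV2 with DOX was -0.043 against line 1 alone (0 members), -0.92 in DESeq2 (3 members), and -1.28 to -0.61 (3 to 6 members) with 1 library left out. TRIM33-KO with DOX was 0.70 against line 2 alone (1 member). Without DOX, TRIM24-KO was -0.69 against line 1 and 1.15 against line 2, and -0.62 to 0.68 with 1 library left out. TRIM33-KO without DOX was -0.75 against line 1 (1 member) and -0.58 to 0.69 with 1 left out. Line 2 against line 1 without DOX had 5 members called with no filter, 5 in DESeq2 and 1 to 2 with 1 library left out. The TRIM24-KO interaction was -1.14 with no filter (now called), 0.64 against line 1 and -2.93 against line 2 (called). That of TRIM33-KO was 1.33 with no filter and 3.18 against line 1 (both called) and -0.38 against line 2. The line 2 interaction ran from 3.22 to 3.77 with 1 library left out, and its call was lost without line 1 no-DOX replicate 1 (3.42, adjusted p = 0.051).

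Single members turned sign as follows. Against line 1 alone, TRIM24-KO with DOX gave 0.12 for Zscan4c and 0.098 for Zscan4f, and without DOX -0.45 for Zscan4b, -1.20 for Zscan4c and -0.17 for Zscan4f. TRIM33-KO without DOX gave -0.34 for Zscan4a, -0.80 for Zscan4b, -0.44 for Zscan4d and -0.56 for Zscan4f against line 1. Against line 2 alone, without DOX, TRIM24-KO gave 1.04 for Zscan4d and 0.35 for Zscan4e, and TRIM33-KO 1.33 for Zscan4c and 0.80 for Zscan4e. Zscan4d in TRIM24-KO without DOX was 0.0058 with RLE size factors, 0.0071 with no filter, 0.014 with CT010467.1 left out and 0.0021 in DESeq2, and Zscan4e in TRIM33-KO 0.0089 with no filter. With 1 library left out, DUXBL-KO against WT with DOX ran from -0.13 to 1.15 for Zscan4a, -0.051 to 1.22 for Zscan4b, -0.17 to 1.08 for Zscan4c, -0.16 to 1.12 for Zscan4d, -0.14 to 1.11 for Zscan4e and -0.096 to 1.10 for Zscan4f. Without DOX Zscan4f ran from -3.33 to 3.96. TRIM24-KO without DOX ran from -0.28 to 0.90 for Zscan4a, -0.45 to 0.99 for Zscan4c, -0.53 to 0.36 for Zscan4d, -1.69 to 0.17 for Zscan4e and -0.44 to 1.43 for Zscan4f. TRIM33-KO without DOX ran from -0.98 to 0.70 for Zscan4a, -1.30 to 0.90 for Zscan4b, -0.79 to 0.70 for Zscan4c, -0.11 to 1.15 for Zscan4d, -0.48 to 0.36 for Zscan4e and -0.12 to 0.82 for Zscan4f.

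Groups share replicate numbers, but the labels do not say that a number pairs samples. Deviations of same-numbered libraries correlated at -0.066 to 0.29 over 28 pairs of pLV2 groups and at 0.31 to 0.68 over 6 pairs of plain groups. With the replicate block the sum gave 12.78 for DOX in WT, 0.44 for DUXBL-KO against WT with DOX, -0.91 for TRIM24-KO and 1.57 for TRIM33-KO against WT pLV2 with DOX and 3.57 for the line 2 interaction, and no call of a sum or count of members called changed.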
